A study of Homo sapiens with 12 samples.

Results

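Cells given S100A8/S100A9 were set against cells given S100A8 alone, and the 2 arms were read for likeness as well as for difference. The comparison used 6 of the 12 libraries in the series, 3 from each arm, taken by the names of their columns. All libraries came from HK-2 cells, an immortalised line of human proximal tubule epithelium labelled wild type, grown in DMEM medium with fetal bovine serum. In both arms a recombinant protein was present for 48 h, at a labelled dose of 5 mg/mL whose unit nothing else in the sources bears out. The arms were recombinant S100A8 and recombinant S100A8/S100A9; the subunit ratio of the second is unknown here. The other 6 libraries were 3 with recombinant S100A9 and 3 controls that received PBS for the same time, and they entered the fit to steady the estimate of the spread. Whether the 3 replicates of an arm were separate cultures is not stated, and so p-values and intervals cover the spread among these libraries and no more; part of it may be technical.

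S100A8 and S100A9 are calcium-binding proteins that neutrophils and monocytes release in large amounts. They pair into a heterodimer known as calprotectin, which also binds zinc and manganese, and each can form homodimers. Outside the cell they are best known as ligands of the pattern recognition receptor TLR4 and of the receptor AGER (RAGE), upstream of the transcription factor NF-kB and of cytokine and acute-phase genes. A preparation of the heterodimer therefore shares a subunit with S100A8 alone and differs from it by holding S100A9.

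Of 13512 genes tested with edgeR's quasi-likelihood test and Benjamini-Hochberg adjustment, 0 (0%) differed between the arms at an adjusted p under 0.05, and the smallest adjusted p was 0.443. Without adjustment, 598 genes (4.43%) had a p under 0.05; if no gene differed, a level of 5% would give 676. DESeq2's Wald test called 2 genes, IGFN1 and C4B, both described further on. Such counts alone do not show that the arms were alike, so the 95% interval of each gene's difference was compared with a margin of 1.25-fold, which is 0.32 on the log2 scale in either direction. A gene was taken as well measured when its mean over the 6 libraries was at least 10 CPM (counts scaled to library size with TMM factors). Differences are log2 of S100A8/S100A9 over S100A8, and levels are mean ± SD over 3 libraries.

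Among 9910 well measured genes, 9135 (92.2%) had an interval that lay wholly within the margin. One-sided tests against each bound of the margin, adjusted over these genes, called 9433 (95.2%) equivalent. For 630 genes (6.36%) the interval included 0 but reached past 1.25-fold, so that neither likeness nor difference could be stated. Another 145 genes (1.46%) had an interval that excluded 0 and reached past the margin, 55 of them higher and 90 lower with S100A8/S100A9, and are called deviating here. For 0 well measured genes did the whole interval lie beyond the margin. An interval above 0 was found for 218 genes (2.2%) and one below 0 for 199 (2.01%); the median difference was 0.00, which TMM scaling centres. Estimates were small, with 9222 genes (93.1%) within 1.1-fold and an SD of 0.07 over genes.

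The margin that would be needed was also computed. Of these intervals, 50% fitted within 1.13-fold, 75% within 1.18-fold, 90% within 1.24-fold, 95% within 1.28-fold and 99% within 1.39-fold. The gene nearest to the margin on the inside was OXCT1, a mitochondrial enzyme of ketone body use, whose interval ran from -0.32 to 0.24. On the outside the nearest was STX11, a membrane fusion protein, with an interval from -0.32 to 0.16. Both differences were small, at -0.04 and -0.08, so the sides of the margin separate such genes by the width of the interval rather than by the estimate.

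**Figure D1:**
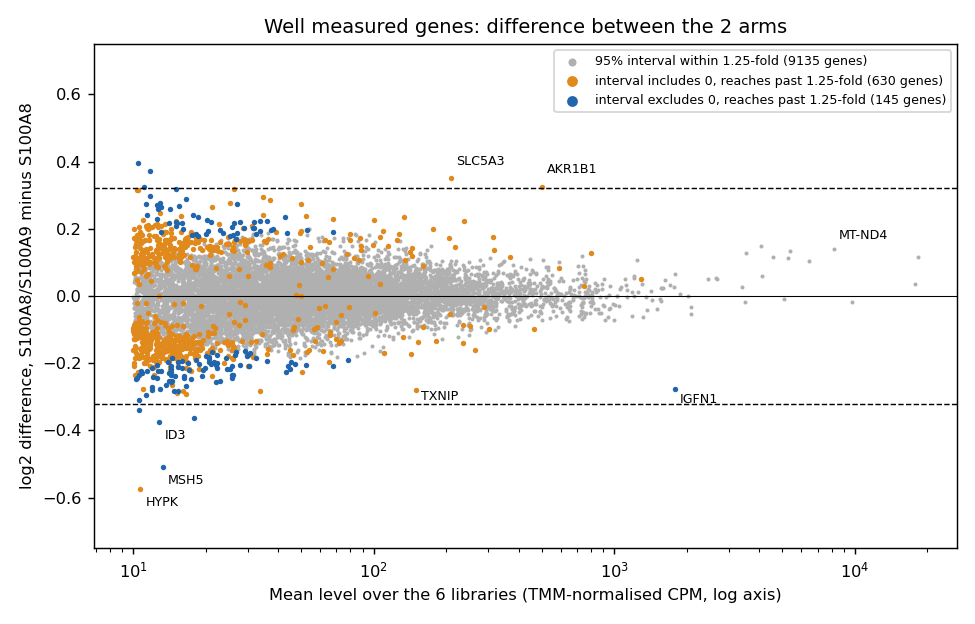
Log2 difference between S100A8/S100A9 and S100A8 (vertical axis) against the mean CPM over 6 libraries (horizontal log axis) for 9910 well measured genes, 1 point a gene; dashed lines mark 1.25-fold. Grey points, 9135 genes, had a 95% interval within the margin; blue points, 145 genes, deviated and lay mostly below 50 CPM, with IGFN1 far to their right.

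How tightly a gene could be placed depended on its level. Of 1815 genes at 10 to 20 CPM, 71.5% lay within the margin, against 94.8% of 3313 genes at 20 to 50 CPM. At 50 to 100 CPM and at 100 to 1000 CPM the share was 98.2%, of 2422 and 2304 genes. The median distance from estimate to interval bound fell from 0.21 at 10 to 20 CPM to 0.09 at 100 to 1000 CPM. Above 1000 CPM, 54 of 56 genes (96.4%) lay within the margin, and IGFN1 deviated. Below 10 CPM the data could seldom show likeness: of 3592 genes with an interval, 261 lay within the margin, 3157 included 0 and reached past it, 166 deviated and 8 lay wholly beyond it.

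**Figure D2:**
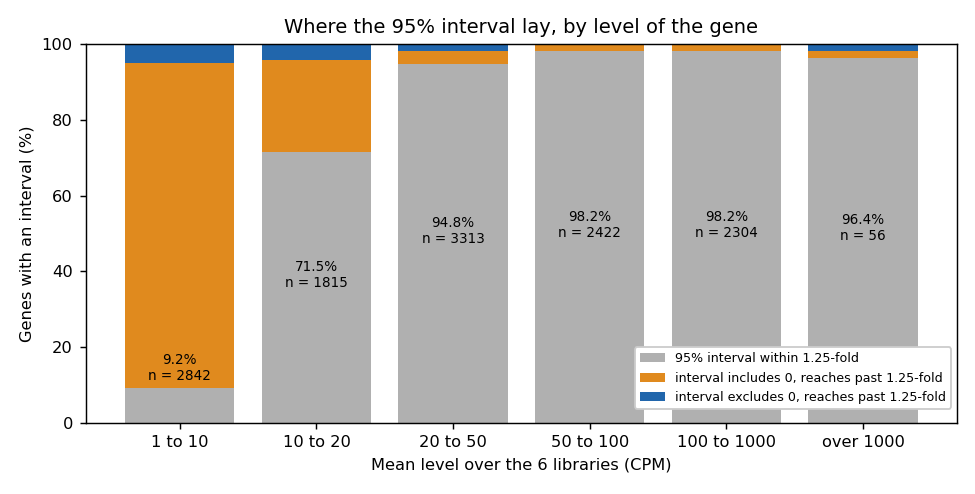
Share of genes (percent of those with an interval, vertical axis) whose 95% interval lay within 1.25-fold (grey), included 0 and reached past it (orange) or excluded 0 and reached past it (blue), by mean CPM over 6 libraries (horizontal axis). The grey share grew from 9.18% at 1 to 10 CPM to 98.2% at 50 CPM and above up to 1000 CPM.

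The same measures in other pairs of groups give a scale for these figures. Against S100A9 alone, S100A8/S100A9 had 34 genes past the test (0.252%), 91.5% of well measured genes within the margin and 11 wholly beyond it. Between S100A9 and S100A8 the test called 25 genes (0.185%), with 91% within the margin and 8 beyond it. Against PBS, S100A8/S100A9 had 0 genes past the test (0%) and 91.6% within the margin. S100A8 against PBS had 1 gene past the test, C4B (0.0074%), and 92.6% within the margin. These comparisons share libraries with the one described here and are not independent of it. The share within the margin thus ranged only from 91% to 92.6% in all 5, and it was the number of genes wholly beyond the margin that set the comparisons with S100A9 apart.

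In the 6 libraries, totals ran from 16398079 to 20748321 counts and 15497 to 15642 genes had counts. A count of 0 allowed up to 0.183 CPM in the smallest library, a limit for counting error only. Marker levels in this paragraph are CPM of the library total, without TMM factors. Of 14 tubule and epithelial markers, 11 reached 1 CPM, among them PAX8, KRT8, KRT18, EPCAM and GGT1, whereas ANPEP, ALPL and AQP1 stayed below 1 CPM in all 6 libraries. Immune markers summed to 91.8 to 104 CPM with S100A8/S100A9 and to 97.5 to 109 CPM with S100A8, most of it CD68; 7 of 16, among them TYROBP, CD3E and MPO, were at 0 in all 6, and PTPRC did not exceed 0.116 CPM. Endothelial markers summed to 9.01 to 9.74 and 9.33 to 9.93 CPM, with EMCN at 0, and fibroblast markers to 130 to 149 and 118 to 142 CPM, most of it LUM and RGS5, with DCN and COL1A2 at 0. The S100A8 library with replicate number 1 differed most from its group, with a root mean square deviation of 0.09 on the log2 scale against 0.06 to 0.08 in the others.

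Neither added protein had a transcript in these cells: the counts of S100A8 and S100A9 were 0 in each of the 6 libraries. TLR4 stood at 3.09 ± 0.37 CPM with S100A8/S100A9 and 3.21 ± 0.63 with S100A8, a difference of -0.05 (95% interval -0.48 to 0.37). AGER stood at 2.67 ± 0.65 and 2.35 ± 0.41 CPM (0.18, -0.31 to 0.68). Both receptors were too low for an interval within the margin. Of the 9 well measured genes of the S100 agents and receptors list, 8 lay within it, and the exception was EMB, which encodes the adhesion protein embigin, at -0.09 (-0.38 to 0.21).

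Of 24 well measured NF-kB targets and feedback genes, 22 (91.7%) lay within the margin, near the 92.2% of all well measured genes. The inhibitor NFKBIA, which NF-kB itself induces, was the one that deviated. It read 48.3, 47.5 and 43.0 CPM in the S100A8/S100A9 libraries and 41.4, 38.1 and 38.4 CPM in the S100A8 libraries. The groups did not overlap, and the difference was 0.24 (0.11 to 0.37, unadjusted p = 0.0010), which did not pass the adjusted edgeR test (adjusted p = 0.98). PBS controls averaged 41.0 ± 2.17 CPM and S100A9 libraries 50.6 ± 3.00 CPM, so the S100A8/S100A9 mean lay between those of S100A8 and S100A9. REL, a subunit of NF-kB 50.2% of whose transcript, cut into 93-base windows, also occurs in other genes, and the atypical inhibitor NFKBIZ had intervals below 0 and within the margin, at -0.12 and -0.10.

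Genes that earlier work on these data found higher after S100A9 mostly stood at the level of S100A8 alone or could not be placed. CCL20, given further on, was lower than with S100A8 alone, with an interval that excluded 0. SOD2 (ENSG00000112096), the mitochondrial superoxide dismutase, read 276, 299 and 300 CPM with S100A8/S100A9 and 295, 287 and 293 CPM with S100A8. Its difference was 0.00 (-0.08 to 0.08) within the margin, while S100A9 libraries averaged 512 ± 22.8 CPM. A second SOD2 entry, ENSG00000285441, was less steady, with differences of 0.14 to 1.04 when 1 library at a time was left out. LCN2, which encodes the siderophore-binding protein NGAL, stood at 5.00 ± 0.79 and 5.61 ± 0.87 CPM against 54.9 ± 18.9 CPM with S100A9; its difference between the 2 arms, -0.18, had a wide interval (-1.20 to 0.84). Complement gene C3 differed by -0.07 (-0.29 to 0.15), within the margin. The chemokine CXCL8 differed by 0.07 (-0.16 to 0.29), also within it.

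Other secreted factors were too low to be placed within 1.25-fold. IL6 differed by 0.06 (-0.22 to 0.34), the neutrophil chemokine CXCL2 by -0.20 (-0.56 to 0.16) and CSF2, which encodes GM-CSF, by -0.24 (-0.62 to 0.14). CCL20, a chemokine for T cells and dendritic cells, read 0.340, 0.299 and 0.209 CPM with S100A8/S100A9 and 0.547, 0.698 and 0.639 CPM with S100A8. The groups did not overlap and the interval excluded 0 (-1.15, -2.12 to -0.18), on levels near the limit that a count of 0 allows. PBS controls averaged 0.540 ± 0.238 CPM, between the 2 arms. All 7 well measured genes of the cytokine and chemokine list lay within the margin, the most abundant in CPM being CSF1, the macrophage growth factor, at 0.04 (-0.07 to 0.16). The acute-phase genes SAA1 and SAA2, near-identical copies, were summed and stood at 0.728 ± 0.388 and 0.649 ± 0.017 CPM (0.14, -0.63 to 0.90).

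Complement C4B gave the smallest p of all genes tested (edgeR, unadjusted p = 3.28e-05, adjusted p = 0.443). C4A and C4B are neighbouring copies of the gene for complement component C4, on chromosome 6 at 31982024 to 32002681 and 32014795 to 32035418 (GENCODE 29, GRCh38, plus strand). In their longest protein-coding transcripts 5427 bases could be aligned, and 13 of them differed. The 60-base stretch with the most differences is shown because reads from the copies can be told apart where they cross such letters, which are in capitals; a further 33 bases of the C4A transcript were left unaligned.
C4A: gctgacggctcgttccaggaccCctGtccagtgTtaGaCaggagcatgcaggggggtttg
C4B: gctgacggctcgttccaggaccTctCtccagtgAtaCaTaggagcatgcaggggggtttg
These 5 differences lie within bases 3421 to 3480 of the C4A transcript and 3388 to 3447 of the C4B transcript. Cut into windows of 93 bases, 88.5% of the windows of C4A and 89.0% of those of C4B occurred unchanged in another gene.

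C4B held 32, 26 and 33 counts in the S100A8/S100A9 libraries and 8, 1 and 7 counts in the S100A8 libraries. C4A went the other way, with 28, 37 and 36 counts against 47, 58 and 66. Neither pair of groups overlapped. In CPM, C4B stood at 1.61 ± 0.10 against 0.317 ± 0.228 (2.36, 1.30 to 3.42) and C4A at 1.82 ± 0.43 against 3.35 ± 0.49 (-0.90, -1.43 to -0.36). The share of C4 counts assigned to C4B was 53.3%, 41.3% and 47.8% with S100A8/S100A9 and 14.6%, 1.70% and 9.59% with S100A8. In PBS it was 50%, 66.7% and 38.7%, and in S100A9 43.5%, 60% and 28.8%, so the S100A8 libraries were the ones that stood apart. Summed over both copies, the level was 3.43 ± 0.457 against 3.67 ± 0.493 CPM, a difference of -0.10 (-0.50 to 0.29). The 2 copies thus moved in opposite directions, and the interval of their sum included 0 but reached past 1.25-fold. Whether the genes themselves changed or counts were divided differently between the copies, and the part of the authors' counting in this, was not tested.

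**Figure D3:**
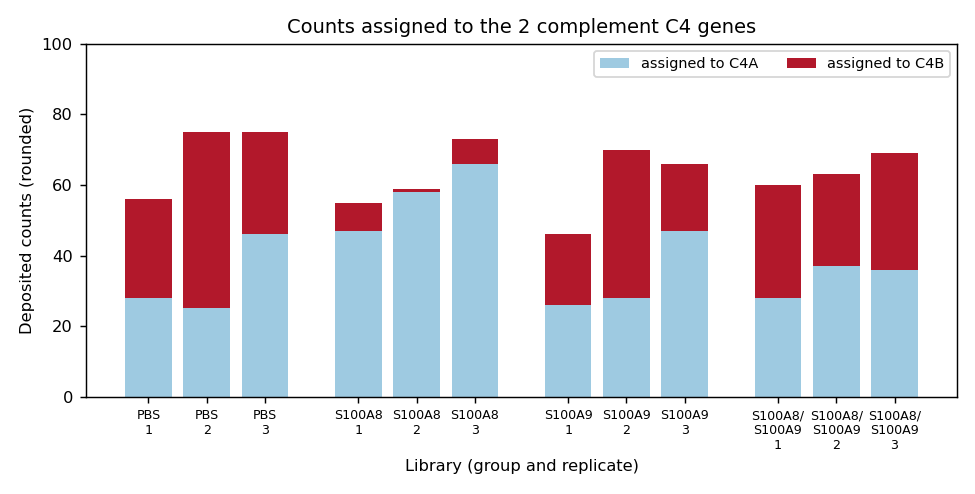
Deposited counts, rounded (vertical axis), assigned to C4A (light blue) and C4B (red, stacked on top) in each of the 12 libraries (horizontal axis, group and replicate). The total height of the bars is alike in S100A8 and S100A8/S100A9, while the red part is 1 to 8 counts in the S100A8 libraries and 26 to 33 in the S100A8/S100A9 libraries.

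The rest of the complement and acute-phase list had 11 well measured members, of which 8 (72.7%) lay within the margin and 0 deviated. Over all well measured genes these shares were 92.2% and 1.46%. CFI, C5 and C1S, with group means of 10.9 to 20.4 CPM, were the ones whose intervals reached past it, and 71.3% of the windows of CFI were shared.

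Of 28 well measured interferon response genes, 23 (82.1%) lay within the margin, 1 deviated upward and 1 downward. Over all well measured genes, 92.2% lay within it and 1.46% deviated. The median of the list was -0.03, and 8 of 28 estimates were above 0, against 5032 of 9910 for all well measured genes. IFIT1, an RNA-binding antiviral protein, read 21.2, 19.5 and 22.2 CPM with S100A8/S100A9 and 26.6, 25.2 and 23.3 CPM with S100A8. All 3 values of the first group lay below those of the second, and the difference was -0.25 (-0.42 to -0.09); PBS controls averaged 21.2 ± 1.43 CPM, as low as S100A8/S100A9. STAT2, a transcription factor of interferon signalling, lay below 0 inside the margin, at -0.18 (-0.29 to -0.07), and IFIT3 at -0.11 (-0.22 to -0.01). IRF9, which binds STAT2, deviated upward at 0.24 (0.01 to 0.47), with groups that overlapped, and every one of its windows occurred in another gene, so its count is uncertain. The 15 well measured MHC class I presentation genes all lay within the margin.

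In the list of TGF-beta, BMP and ID genes, 21 of 25 well measured members lay within the margin and 2 deviated, both lower, beside 92.2% and 1.46% of all well measured genes. ID3, an inhibitor of basic helix-loop-helix transcription factors and a BMP target, read 10.3, 12.9 and 10.4 CPM with S100A8/S100A9 and 12.8, 16.7 and 13.9 CPM with S100A8. One S100A8/S100A9 library overlapped the other group; the difference was -0.37 (-0.63 to -0.11), the largest of any deviating member of a list. The receptor TGFBR1 read 38.8, 46.7 and 46.6 CPM against 51.0, 52.9 and 47.6 CPM (-0.20, -0.37 to -0.03). The matricellular factor CCN2, at 0.17 (-0.09 to 0.43), and the activin subunit INHBA, at -0.10 (-0.34 to 0.15), could not be placed.

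Matrix, adhesion and epithelial genes, counted here where well measured, showed few deviations. Of 30 well measured matrix genes 28 lay within the margin, and fibronectin, FN1, one of the most abundant transcripts of these cells, differed by 0.04 (-0.03 to 0.10). Tenascin C, TNC, deviated: it read 32.3, 29.9 and 30.2 CPM with S100A8/S100A9 and 29.4, 26.8 and 24.2 CPM with S100A8, a difference of 0.20 (0.06 to 0.35) without overlap. Plakoglobin, JUP, a junction protein, was 0.18 higher (0.07 to 0.29) and still within the margin. Of 20 integrins and adhesion genes 15 lay within the margin, beside 92.2% of all well measured genes, and the 5 others (ITGA2, ITGA6, ITGB3, ITGB4 and ITGB8) all had intervals that included 0; 55.7% of the windows of ITGB3 were shared. Junction and keratin genes lay within in 22 of 24 cases. Of 19 tubular injury genes 17 lay within, as did 9 of 11 proximal tubule identity genes, where the transcription factor PAX8 (0.18, -0.09 to 0.44) could not be placed.

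Stress genes, counted here where well measured, are given beside the same background, 92.2% within the margin and 5032 of 9910 estimates above 0. Of 24 cytosolic chaperones 21 lay within it and 18 of 24 estimates were above 0; the small heat shock protein CRYAB deviated at 0.18 (0.02 to 0.34; 0.11 without S100A8/S100A9 library 3), and HSPB1 and HSPA4 had intervals above 0 inside the margin, both at 0.09. Among 31 genes of the unfolded protein and integrated stress responses, 29 lay within and 10 estimates were above 0. MANF, a secreted factor induced by endoplasmic reticulum stress, read 21.2, 23.3 and 23.9 CPM against 27.3, 25.4 and 26.6 CPM (-0.22, -0.36 to -0.07), without overlap. ATG7, an enzyme of autophagosome formation, was the deviating gene among 31 of autophagy and lysosome, at -0.18 (-0.35 to -0.01). Of 28 NRF2 targets 27 lay within it. All 11 well measured metallothionein and zinc transport genes and all 14 well measured iron genes lay within the margin. Of 18 iron genes tested, which include those below 10 CPM, 2 had an unadjusted p under 0.05 in edgeR, beside 4.43% of all genes tested.

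Among the mitochondrially encoded genes, all 13 estimates were above 0, with a median of 0.11 against 0.00 for all well measured genes, and in 8 of 13 the interval lay above 0, against 2.2% of all well measured genes. MT-CO1, a catalytic subunit of cytochrome c oxidase, read 19544, 18694 and 18981 CPM with S100A8/S100A9 and 17694, 17565 and 17549 CPM with S100A8, a difference of 0.12 (0.05 to 0.19). MT-ND4, a subunit of complex I, read 8867, 8411 and 8404 CPM against 7920, 7745 and 7630 CPM (0.14, 0.05 to 0.23). MT-ATP6 was 0.15 higher (0.05 to 0.24) and MT-CYB 0.13 (0.05 to 0.21). Groups did not overlap in MT-CO1, MT-CO2, MT-CO3, MT-ND4, MT-ATP6 and MT-CYB, 6 of 13, against 8.46% of all well measured genes. Such counts are not 13 independent results, because all 13 genes share the organelle's part of each library.

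These differences were small: 0 of 13 mitochondrially encoded genes deviated, and 10 of 13 intervals lay within the margin. The others, MT-ND3, MT-ND4L and MT-ATP8, varied too widely between replicates to place, and MT-ND4L and MT-ATP8 overlap a neighbouring gene. The transcripts of the organelle made up 6.41%, 6.23% and 6.13% of counts with S100A8/S100A9 and 5.97%, 5.69% and 5.76% with S100A8. The groups did not overlap. An exact two-sided permutation test over samples then gives p = 0.1, the smallest that 3 against 3 allows. That value is fixed once the groups do not overlap and could not fall under 0.05, so the test decides nothing. PBS controls overlapped both arms, at 5.69%, 5.80% and 6.24%. Leaving out 1 library at a time gave 6 to 9 genes with an interval above 0 and medians of 0.09 to 0.16. In bulk samples, more RNA from the organelle in each cell and more cells rich in it cannot be told apart.

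**Figure D4:**
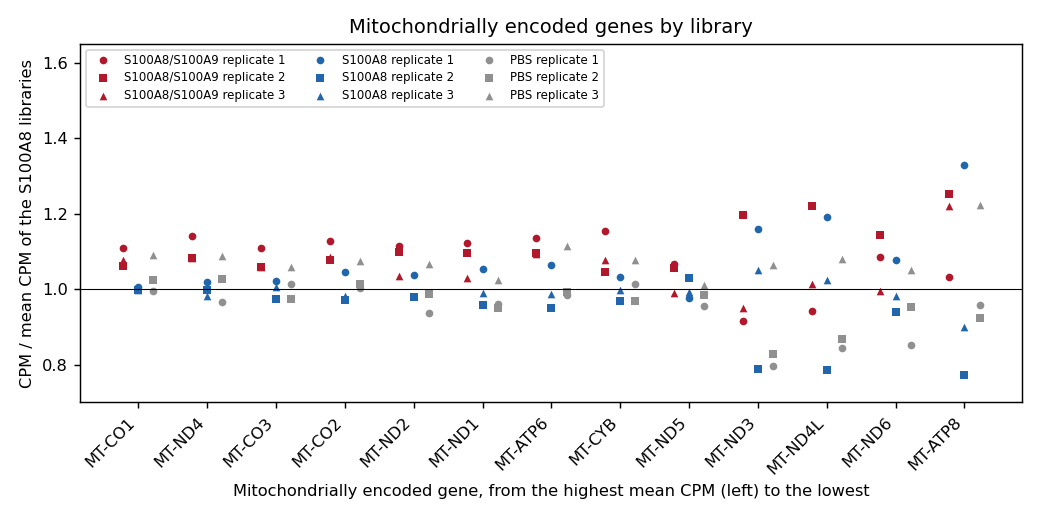
CPM of the 13 mitochondrially encoded genes in each library, divided by the mean of the S100A8 libraries (vertical axis, ratio), for S100A8/S100A9 (red), S100A8 (blue) and PBS (grey), with 1 symbol for each replicate number. Red points lie above blue ones in 6 genes, grey points overlap both, and MT-ND3, MT-ND4L and MT-ATP8 scatter widely.

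The nuclear partners of those genes showed no such lean. Of 72 well measured nuclear genes of oxidative phosphorylation, 68 lay within the margin, 38 of 72 estimates were above 0 and the median was 0.00. ATP5PD, a subunit of ATP synthase, was the one whose interval excluded 0, at -0.15 (-0.28 to -0.02). Cytosolic ribosomal protein genes leaned the other way: 19 of 78 estimates were above 0 and the median was -0.03, with 76 of 78 within the margin and RPS7 (-0.07, -0.14 to -0.00) the one whose interval excluded 0. Without the S100A8 library numbered 3, 34 of the estimates were above 0 and the median was -0.00; on log2(FPKM + 1) there were 10. Ribosomal protein transcripts were 3.31 ± 0.114% of counts with S100A8/S100A9 and 3.40 ± 0.083% with S100A8.

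Counts for metabolic and growth programmes cover their well measured members only. They stand beside 92.2% within the margin, 2.2% with an interval above 0 and 5032 of 9910 estimates above 0 for all well measured genes. All 32 cholesterol and fatty acid synthesis genes lay within the margin; 23 of 32 estimates were above 0, the median was 0.05, and 4 had an interval above 0. These were SQLE, which makes squalene epoxide (132.7 ± 3.87 against 120.4 ± 4.04 CPM, 0.14, 0.04 to 0.24), MVD (0.17, 0.03 to 0.32), ACSS2 (0.17, 0.03 to 0.30) and MSMO1 (0.09, 0.00 to 0.19). All 32 genes of glycolysis and the hypoxia response lay within the margin, as did all 18 immediate early genes and all 6 mesenchymal genes. Of 54 mitotic genes 52 lay within it; the centriole kinase PLK4 was 0.15 higher (0.03 to 0.27) and the mitotic kinase CDK1 0.10 lower on the same scale (-0.10, -0.19 to -0.01). Of 51 replication genes 49 lay within it, and POLE2, a subunit of DNA polymerase epsilon, deviated at 0.18 (0.02 to 0.35). Among p53 targets 23 of 26, among apoptosis genes 26 of 28 and among histone genes 4 of 7 were within the margin, and 0 of these deviated.

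**Figure D5:**
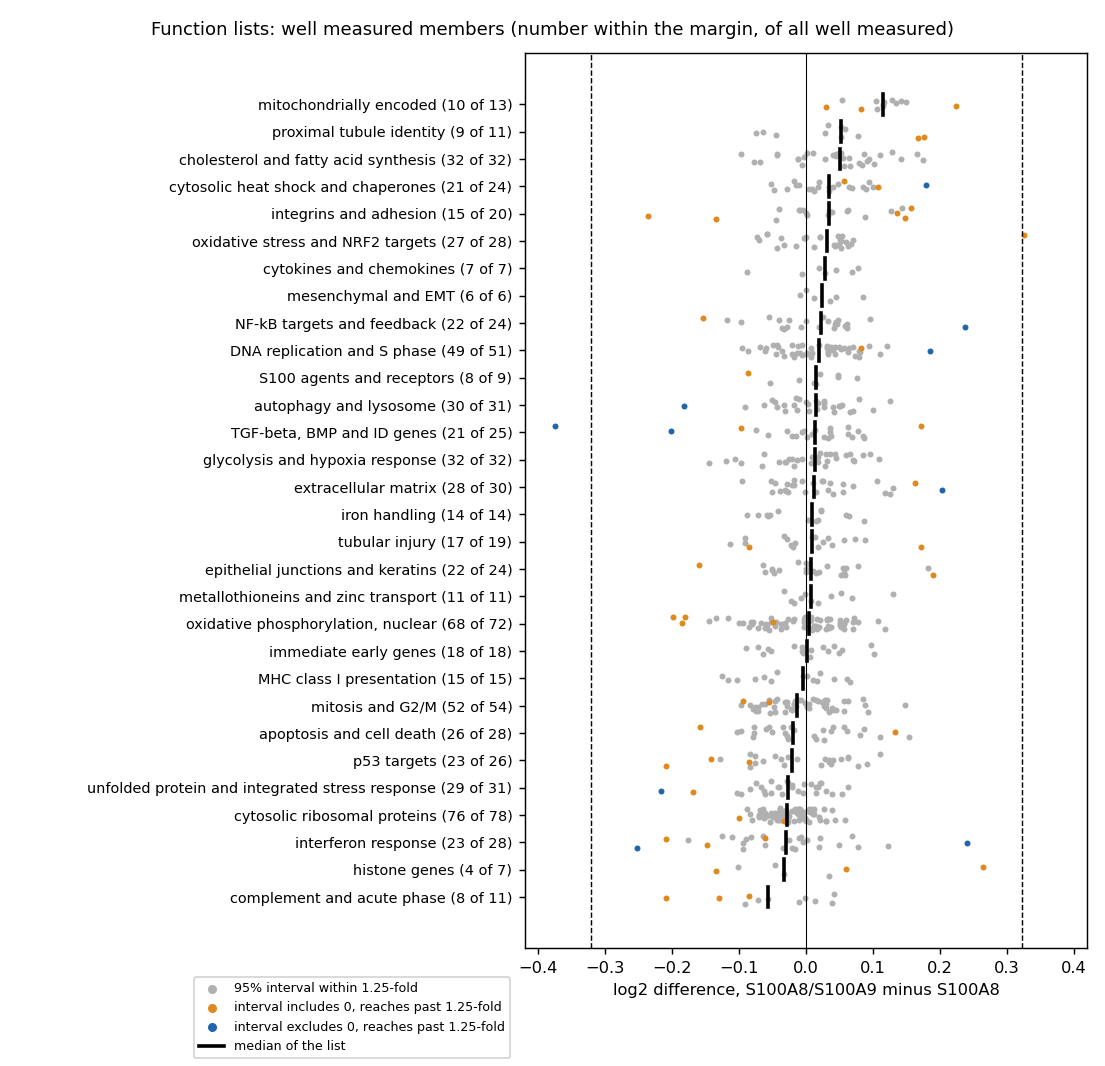
Log2 difference between S100A8/S100A9 and S100A8 (horizontal axis) for the well measured members of 30 function lists (rows, ordered by median; black bars mark medians), with the number within the margin of all well measured members beside each name. Dashed lines mark 1.25-fold; the 10 deviating members (blue) are spread over 8 lists, and the mitochondrially encoded genes sit at the top with all points above 0.

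Of 761 well measured genes on a list, 10 deviated, beside 1.46% of all well measured genes (NFKBIA, IFIT1, IRF9, ID3, TGFBR1, TNC, CRYAB, MANF, ATG7 and POLE2), and the other 135 deviating genes were on no list. Their absolute differences had a median of 0.22 and reached 0.51, on the values that chose them. Most were low: 77 lay at 10 to 20 CPM, 62 at 20 to 50 CPM and 6 higher. Their groups did not overlap in 95 of 145, a count that the same values fix, beside 838 of 9910 (8.46%) for all well measured genes. Genes with at least 50% of their 93-base windows found in another gene made up 15 of 145 deviating genes (10.3%), 61 of 626 unplaced ones with a transcript (9.74%) and 315 of 9904 in all (3.18%).

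The largest deviations upward were in genes with few counts. ZFR2, a zinc finger RNA-binding protein, read 12.3, 11.97 and 11.5 CPM with S100A8/S100A9 and 11.004, 7.15 and 9.06 CPM with S100A8 (0.40, 0.15 to 0.64). GFER, a sulfhydryl oxidase of the mitochondrial intermembrane space, read 12.9, 14.7 and 12.04 CPM against 10.2, 10.1 and 10.3 CPM (0.37, 0.13 to 0.61). Neither pair of groups overlapped, and without S100A8 library 2 the difference of ZFR2 was 0.25. FUT11, a fucosyltransferase, was higher by 0.33, the zinc finger gene ZNF112 by 0.30, the glycine transporter SLC6A9 by 0.29 (0.19 without S100A8/S100A9 library 1) and FBXL19, an F-box protein, by 0.27. ENSG00000258790 and ENSG00000259316, higher by 0.32 and 0.28 (the latter 0.16 without S100A8/S100A9 library 2), shared 95.1% and 69.5% of their windows with other genes and are uncertain.

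Downward, MSH5, a MutS homologue of meiotic recombination, read 10.4, 11.2 and 11.3 CPM against 16.2, 17.1 and 13.4 CPM (-0.51, -0.79 to -0.23), but 87.9% of its windows were shared. PABPC1L, a poly(A)-binding protein, read 14.5, 17.5 and 15.03 CPM against 21.04, 19.1 and 20.2 CPM (-0.36, -0.58 to -0.14). KCP, a secreted regulator of BMP signalling first described in kidney, read 9.22, 10.3 and 8.59 CPM against 11.3, 12.97 and 11.1 CPM (-0.34, -0.57 to -0.11). In both genes all S100A8/S100A9 libraries lay below all S100A8 libraries. The nucleotide sugar transporter SLC35D1 was lower at -0.31 (-0.20 without S100A8/S100A9 library 2), the ubiquitin ligase TRIM36 at -0.29 (-0.19 without S100A8 library 2), the apoptosis repressor NOL3 at -0.28 and FAM72A, 85.5% of whose windows were shared, at -0.28.

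IGFN1 was the deviating gene with by far the most counts behind it. It encodes an immunoglobulin-like and fibronectin domain protein described in muscle, on chromosome 1 at 201190825 to 201228952. It read 1582, 1748 and 1521 CPM with S100A8/S100A9 and 2037, 1963 and 1881 CPM with S100A8. The groups did not overlap, and the difference was -0.28 (-0.41 to -0.14, unadjusted p = 0.00070, adjusted p = 0.98 in edgeR). DESeq2's Wald test gave an adjusted p of 0.00675 for IGFN1 and of 0.0204 for C4B. PBS controls stood at 1935 ± 160 CPM and S100A9 libraries at 1837 ± 78.8 CPM, so it was the S100A8/S100A9 mean that lay lowest of the 4 groups.

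Among genes with the smallest unadjusted p, none of which passed the adjusted test, TCF3, P3H2 and CCNH were well measured and inside the margin. The transcription factor TCF3 read 94.5, 89.3 and 89.6 CPM against 83.0, 81.4 and 79.9 CPM (0.16, 0.07 to 0.26). The collagen prolyl hydroxylase P3H2 differed by 0.16 (0.07 to 0.26) and CCNH, the cyclin of the CDK-activating kinase, by 0.17 (0.07 to 0.27). MNAT1, which encodes another subunit of that kinase and was picked after its value was seen, deviated at 0.19 (0.05 to 0.32). CCNH and MNAT1 were both named for their values, so they do not show how the kinase as a whole stood. TCF3, P3H2, CCNH and MNAT1 all had an adjusted p of 0.98 in edgeR. TRIM11, a ubiquitin ligase, deviated at -0.21 (-0.33 to -0.09). PSG3, a pregnancy-specific glycoprotein (0.76, 0.35 to 1.17), AMY2B, an amylase (-0.67, -1.06 to -0.29), and RGPD1, a RANBP2-like gene (-0.59, -0.89 to -0.28), lay under 10 CPM; 95.1% of the windows of RGPD1 and 45.5% of those of AMY2B were shared.

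Genes with many counts that still could not be placed were those that varied between replicates. At 100 CPM or more, 42 genes had an interval that included 0 and reached past the margin. SLC5A3, an inositol transporter induced by high osmolarity, read 275, 168 and 260 CPM with S100A8/S100A9 and 259, 125 and 169 CPM with S100A8. AKR1B1, aldose reductase, which makes sorbitol, read 671, 461 and 537 CPM against 528, 364 and 442 CPM. In both genes the library numbered 2 was the lowest of its group in both arms, and the intervals of the differences, 0.35 (-0.59 to 1.29) and 0.33 (-0.26 to 0.91), included 0. PBS controls had their lowest value in the library numbered 2 as well, with 265, 134 and 240 CPM for SLC5A3 and 546, 363 and 478 CPM for AKR1B1. The library numbered 2 was the lowest in both arms in 20 of the 42 genes and the highest in 8, among them TXNIP, an inhibitor of thioredoxin (122, 153 and 133 CPM against 131, 201 and 163 CPM, -0.28, -0.80 to 0.24). Of all 2360 genes at 100 CPM or more, 615 had the library numbered 2 at the same extreme in both arms. SLC5A3, AKR1B1 and TXNIP were picked after their values were seen.

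Only 10 well measured genes had an estimate past 1.25-fold. Upward these were ZFR2, GFER, SLC5A3, FUT11 and AKR1B1, and downward HYPK, MSH5, ID3, PABPC1L and KCP. HYPK, a chaperone of nascent chains, had the largest estimate, -0.57, with an interval from -1.35 to 0.20 and 32.7% of its windows shared. Of the 5 most abundant genes, MT-CO1, FN1, EEF1A1, MT-ND4 and MT-CO3, all lay within the margin; EEF1A1, an elongation factor of translation, stood at -0.02 (-0.08 to 0.05). HERC3, a ubiquitin ligase, was listed under 2 Ensembl IDs: ENSG00000138641 differed by 0.05 (-0.16 to 0.26), within the margin, and ENSG00000287542, near 1 CPM, by -1.02 (-1.90 to -0.13).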

How the data were processed

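The authors deposited 1 gene table with, per the file headers, a count and an FPKM value for each of 12 libraries. The deposited counts are expected counts (12.0% were not whole) and were rounded; the deposited FPKM values are the authors' scaling by gene length and depth. Per the labels' protocols, mRNA was enriched with oligo(dT) beads. Which aligner, counter and annotation made them is not given in the sources used here. All 20286 IDs are human Ensembl IDs, although GRCm38 and mm10, both mouse, are the builds in the submitters' processing notes, so which build was used for counting is unclear. A gene name table covered 20228 IDs and GENCODE 29 a further 50, which left 8 unnamed.

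Counts were tested in R 4.3.3 with edgeR 4.0.16 (filterByExpr, minimum count 10, TMM, robust quasi-likelihood fit, two-sided) on all 12 libraries with 1 coefficient per group and 8 residual degrees of freedom; the common coefficient of variation was 4.65%. Intervals are the estimate plus or minus t times its standard error, and never narrower than Poisson counting error alone gives. For 10 low genes with a group at 0 there was no interval. Equivalence was tested by one-sided tests against each bound of the margin, without pairing of libraries. The larger p of a gene was kept and adjusted by Benjamini-Hochberg over well measured genes. This p was never taken below the one that Poisson counting error alone gives. Totals of 16398079 to 20748321 counts limit the precision at low levels. Shared windows are 93-base stretches, taken every 5 bases, of GENCODE 29 transcripts.

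Named genes were the 5 with the smallest p in each direction, up to 8 deviating genes per direction by size, the smallest p and the highest level of each list, the 5 highest genes, and genes an earlier analysis found higher after S100A9, with TLR4, AGER, HERC3 and both C4 copies. Other list members that deviated, excluded 0 or could not be placed, and genes at the margin or past it, were named after their values were seen. Members and lists were chosen with earlier results of these data known. Alternatives were DESeq2 1.42.0 (size factors and Wald test), limma 3.58.1 on log2(FPKM + 1), no filter, no robust option, only 6 libraries, the replicate number as a block, other margins, interval levels and level minimums, a standard error from the F statistic, summed copies, and leaving out each library. Some genes are not reported here.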

Additional observations from a re-analysis of the deposited data

How the results depend on the processing

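The share of well measured genes within 1.25-fold ran from 73.7% (from 1 CPM) to 98.2% (from 50 CPM) over the alternatives, with 95.3% for 90% intervals, 90.01% with DESeq2, 87.0% with limma on log2(FPKM + 1), and 85.9% to 89.0% without 1 library; 81.9% lay within 1.2-fold and 99.6% within 1.5-fold. The 145 deviating genes became 289 from 1 CPM, 6 from 50 CPM, 253 with 1.2-fold, 4 with 1.5-fold and 247 with limma; the cause was not tested. Leaving out 1 library gave 133 (without S100A8/S100A9 library 1) to 327 (without S100A8 library 1), and 320 without S100A8/S100A9 library 2. The share of genes with an unadjusted p under 0.05 was 2.85% with DESeq2's Wald test, which called 2 genes, and 3.21% to 7.61% without 1 library, the latter without S100A8 library 1. With the replicate block that share was 6.65%, 0 genes passed and 94.0% lay within the margin. Deviations of libraries with the same number correlated at -0.14, 0.11 and -0.14 over well measured genes, and the main fit did not pair them. Such correlations cannot decide whether the numbers mark a factor shared by some genes, which was not tested. Summing C4A and C4B turned the positive difference of C4B into -0.10. Of 1334 values for 103 named genes, in which the summed copies are not counted, 43 moved by more than a standard error. Among the same 1334 values, 0 turned the sign of a gene whose interval excluded 0. Signs of small differences did turn without 1 library, such as IL6 (-0.07 to 0.16), TLR4 (-0.20 to 0.07), SAA1 (-0.54 to 0.01) and EEF1A1 (-0.05 to 0.01). Depth limits what can be said below 20 CPM, and 3 libraries an arm limit all of it.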
